A study of Mus musculus with 23 samples.

Results

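The metallothioneins Mt1 and Mt2, the zinc importers Slc39a14 and Slc39a4 and the exporters Slc30a1 and Slc30a10 were followed in the liver of male C3H mice that carried or lacked hepatocyte beta-catenin, with or without phenobarbital. These 6 genes, of 18193 on the array, were taken by symbol with every probe set that the platform annotation assigns to one of them alone, which gave 12 probe sets. All 6 genes and all 12 probe sets exceeded the filter on dim signals, as did 13826 genes in all. The study comprised 23 arrays, 1 per liver sample, in 4 groups. Knockout livers with 0.05% phenobarbital in the diet for 12 weeks gave 7 arrays, and knockout livers without it 7. Wild-type livers with the same treatment gave 4 arrays, and wild-type livers without it 5. In the knockout, Cre recombinase driven by the albumin promoter acted on Ctnnb1 alleles whose exons 3 and 6 are flanked by loxP sites. The deletion was thus directed at hepatocytes, and these arrays do not show its extent in other liver cells. The control groups had a phenobarbital-free diet, for which the sample labels name water as the vehicle. Whether each replicate comes from its own animal is not stated, and p values here refer to the spread among the samples of a group.

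Metallothioneins are small cysteine-rich proteins that bind zinc and copper and buffer free zinc in the cell. Their genes are switched on when the zinc sensor MTF-1 (Mtf1) binds metal response elements in the promoter, and glucocorticoids and interleukin-6 also raise them in the liver. ZIP proteins (Slc39a genes) carry zinc into the cytosol, and ZnT proteins (Slc30a genes) carry it out or into vesicles. Phenobarbital activates the nuclear receptor CAR in hepatocytes, and beta-catenin sustains gene expression around the central vein.

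Mt1 and Mt2 lie next to each other on mouse chromosome 8. A promoter window of each is shown, with that of Slc30a1, because MTF-1 is known to act on all 3 genes. The windows run from 250 bases before to 50 bases after the transcript start used in the RefSeq promoter table (GRCm38.p6), 5′ to 3′, and all 3 are on the plus strand. For Mt1 and Slc30a1 that start lies downstream of the first base of the annotated gene. Capitals mark the core of the metal response element, TGCACNC or TGCGCNC, on either strand.
Mt1, chr8:94178839-94179138: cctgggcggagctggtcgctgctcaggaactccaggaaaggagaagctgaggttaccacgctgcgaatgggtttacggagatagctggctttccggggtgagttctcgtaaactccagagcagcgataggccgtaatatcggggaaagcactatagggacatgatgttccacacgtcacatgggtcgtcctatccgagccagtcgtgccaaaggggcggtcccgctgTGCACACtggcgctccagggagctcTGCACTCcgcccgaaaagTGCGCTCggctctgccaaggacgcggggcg
Mt2, chr8:94172368-94172667: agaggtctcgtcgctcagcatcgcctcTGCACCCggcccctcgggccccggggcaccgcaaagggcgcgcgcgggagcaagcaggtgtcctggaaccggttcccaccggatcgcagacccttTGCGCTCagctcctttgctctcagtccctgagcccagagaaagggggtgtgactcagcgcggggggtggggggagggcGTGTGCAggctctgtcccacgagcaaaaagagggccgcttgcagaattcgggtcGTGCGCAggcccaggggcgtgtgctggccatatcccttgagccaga
Slc30a1, chr1:191906531-191906830: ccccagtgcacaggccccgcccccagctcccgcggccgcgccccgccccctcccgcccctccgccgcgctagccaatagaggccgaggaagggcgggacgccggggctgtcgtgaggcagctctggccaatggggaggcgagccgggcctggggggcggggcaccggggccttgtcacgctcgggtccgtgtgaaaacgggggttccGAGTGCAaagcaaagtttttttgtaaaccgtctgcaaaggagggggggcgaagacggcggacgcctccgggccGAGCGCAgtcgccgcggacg

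The Mt1 window held 3 core matches, all on the plus strand, which began at bases -23, 3 and 21 relative to the start. The Mt2 window held 4, at -223 and -128 on the plus strand and at -50 and 5 on the minus strand. The Slc30a1 window held 2, at -43 and 31, both on the minus strand. The Slc30a10 window held 3, of which 2 overlap on opposite strands. Of 32851 RefSeq windows of the same length, 25.7% held at least 1 such match and 1.97% held 3 or more. The core of the antioxidant response element, TGACNNNGC on either strand, matched once in the Mt2 window and once in that of Slc30a1, against 12.4% of all windows with a match. The windows of Slc39a14 and Slc39a4 are not analysed here. A match describes the letters of a window and shows no binding. Promoter bases outside these windows, or around other transcript starts, were not searched, so the counts hold for the windows only.

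The deposited values are log2 signals from robust multi-array averaging (RMA), here called log2 signal. A level can be compared between arrays for 1 probe set but not between probe sets. The median log2 signal of an array ranged from 5.09 to 5.14, and the least similar pair of arrays in a group had a correlation of 0.984 in knockout with phenobarbital, 0.973 in knockout without it, 0.996 in wild type with it and 0.992 in wild type without it. An earlier analysis of these data gave low weights to knockout control arrays 2, 6 and 7, so the results below are also given without them where that changes a call or a direction. Ctnnb1 averaged 12.19 and 12.25 in knockout with and without phenobarbital, against 12.07 and 12.20 in wild type, and where its probes lie relative to the deleted exons is not given in the sources used here. All 10 listed perivenous targets of beta-catenin fell in the knockout in both comparisons. The hepatocyte marker Alb averaged between 14.68 and 14.80 in all 4 groups. The highest log2 signal on any array was 14.92, so Alb lay near the top of the range. By limma, 0 of 6 hepatocyte markers passed the test between the genotypes, although 0 without and 2 with phenobarbital had an unadjusted p under 0.05. These levels do not measure the share of hepatocytes in a sample.

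The comparison of genotypes asked which of the 6 genes differed between knockout and wild-type livers. Both metallothioneins rose in the knockout, with and without phenobarbital, and none of the 4 transporters passed the test. Mt1 (GRCm38.p6 chromosome 8, 94178883 to 94180327) was 10.9-fold higher in knockout than in wild type under phenobarbital and 6.97-fold higher without it. Mt2 (chromosome 8, 94172618 to 94173567) was 8.37-fold higher with phenobarbital and 7.93-fold higher without it.

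In knockout livers with phenobarbital, the log2 signal of Mt1 had a lowest value of 10.86, a median of 11.91 and a highest value of 12.66. In knockout livers without phenobarbital it had a lowest value of 9.94, a median of 10.77 and a highest value of 12.81. The wild-type arrays read 8.59, 8.72, 7.85 and 8.43 with phenobarbital and 8.99, 7.96, 7.998, 8.29 and 8.22 without it. Every knockout array was above every wild-type array, and the knockout arrays were more spread out than the wild-type ones. The group means were 11.85 ± 0.67 in knockout with phenobarbital (SD, n = 7) and 11.09 ± 1.10 in knockout without it (n = 7), against 8.40 ± 0.38 (n = 4) and 8.29 ± 0.41 (n = 5) in the wild type. The log2 change between the genotypes was 3.45 with phenobarbital (SE 0.45, 95% confidence interval 2.52 to 4.38, limma adjusted p = 1.38e-05). It was 2.80 without phenobarbital (SE 0.42, interval 1.93 to 3.67, limma adjusted p = 7.06e-05).

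Mt2 encodes the second ubiquitous metallothionein and showed the same order of groups. In knockout livers with phenobarbital the lowest, median and highest log2 signals of Mt2 were 9.15, 10.72 and 11.65, and in knockout livers without it 8.61, 9.83 and 12.29. The wild-type arrays read 7.72, 7.72, 6.996 and 7.54 with phenobarbital and 8.04, 7.06, 6.61, 7.26 and 7.28 without it. No wild-type array reached the lowest knockout array. The means were 10.56 ± 0.77 and 10.24 ± 1.60 in knockout with and without phenobarbital (SD, n = 7 each), against 7.49 ± 0.34 (n = 4) and 7.25 ± 0.52 (n = 5) in the wild type. The log2 change was 3.07 with phenobarbital (SE 0.61, interval 1.81 to 4.32, limma adjusted p = 0.00124) and 2.99 without it (SE 0.57, interval 1.81 to 4.16, limma adjusted p = 0.000732).

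Among all 13826 genes tested, limma called 20% changed between the genotypes with phenobarbital (11.9% higher and 8.12% lower) and 25% without it (14.8% higher and 10.1% lower). Of the 6 genes here, 2 were called higher and 0 lower in each of these comparisons. The arrays of both genotypes did not overlap for 2 of the 6 genes in each comparison, against 18.6% of all genes with phenobarbital and 10.6% without it. The median log2 change of the 6 genes was 0.22 with phenobarbital and 0.28 without it, against 0.0024 and -0.0047 over all genes tested.

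**Figure D1:**
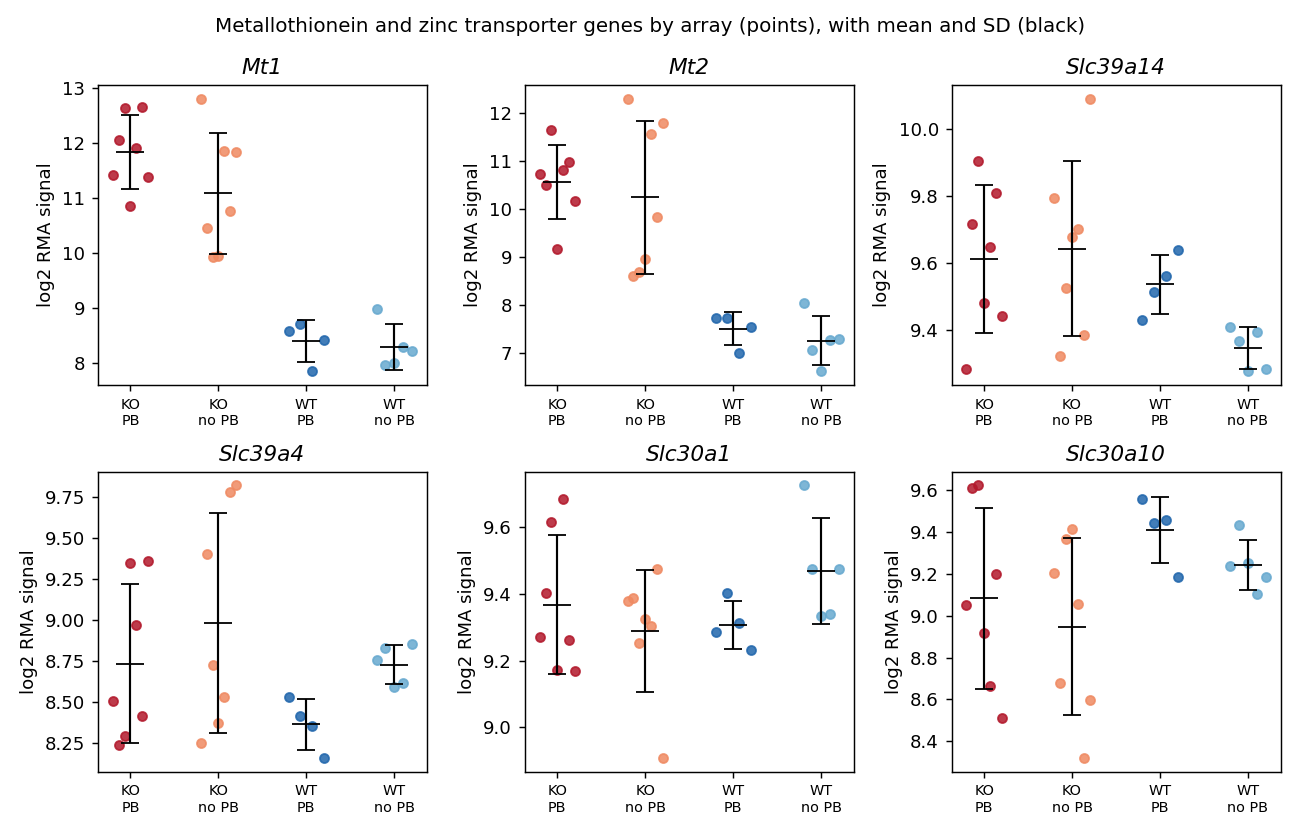
Log2 RMA signal (vertical axes, each panel with its own range) of the 6 genes on every array, for knockout (KO) and wild-type (WT) livers with and without phenobarbital (PB). Points are arrays and the black bars give the mean and SD. All knockout arrays lie above all wild-type arrays for Mt1 and Mt2, where the lowest knockout arrays read 9.94 and 8.61, and the groups overlap between the genotypes for the transporters.

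Within the knockout groups the metallothioneins differed widely between arrays. Without phenobarbital, Mt2 read 12.29, 11.54 and 11.79 on arrays 1, 5 and 7, and 8.61, 8.67, 8.94 and 9.83 on arrays 2, 3, 4 and 6. Mt1 read 12.81, 11.86 and 11.84 on arrays 1, 5 and 7, and 10.46, 9.94, 9.96 and 10.77 on the others. Arrays 1, 5 and 7 were thus the highest of that group for both genes. In knockout livers with phenobarbital, arrays 3 and 6 were the highest for both genes, at 12.64 and 12.66 for Mt1 and 11.65 and 10.96 for Mt2, and array 4 was the lowest for both, at 10.86 and 9.15. Over the 23 arrays the log2 signals of Mt1 and Mt2 had a Pearson correlation of 0.971, and of 0.936 after the mean of each group was subtracted. On each array both genes come from the same sample and normalization, and they are close in sequence, so the correlation is a description.

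Phenobarbital was compared within each genotype to see whether the inducer itself moved these genes. It changed 0 of the 6 genes in knockout and 0 in wild type by limma, and in both comparisons 0 of 6 had an unadjusted p under 0.05. The test called 2.05% of all genes in knockout and 3.85% in wild type. For Mt1 the log2 change was 0.76 in knockout (SE 0.38, interval -0.04 to 1.55, limma adjusted p = 0.368) and 0.11 in wild type (SE 0.48, interval -0.89 to 1.10, adjusted p = 0.964). For Mt2 the log2 change with phenobarbital was 0.32 in knockout (interval -0.75 to 1.39) and 0.24 in wild type (interval -1.10 to 1.59). The upper end of all 4 intervals lies above 1 on the log2 scale. The fit shares 1 variance per gene over all 4 groups, so the wild-type intervals also carry the spread of the knockout arrays. The SD of Mt1 was 0.67 and 1.10 in knockout with and without phenobarbital, against 0.38 and 0.41 in wild type. That of Mt2 was 0.77 and 1.60, against 0.34 and 0.52. When only the wild-type arrays were fitted, the limma adjusted p was 0.820 for Mt1 and 0.616 for Mt2. In knockout the arrays with and without phenobarbital overlapped for all 6 genes.

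The interaction subtracts the phenobarbital change of wild type from that of knockout and tested whether the response differed between the genotypes. It passed for 0 of the 6 genes by limma, with 0 at an unadjusted p under 0.05, against 0.875% called among all genes. For Mt1 it was 0.65 (interval -0.62 to 1.92) and for Mt2 0.08 (interval -1.64 to 1.80). From high to low, the 4 group means of Mt1 and Mt2 ran from knockout with phenobarbital over knockout without it and wild type with it to wild type without it. The genotypes differed at either treatment by the test, and neighbours of the same genotype did not differ beyond their spread.

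**Figure D2:**
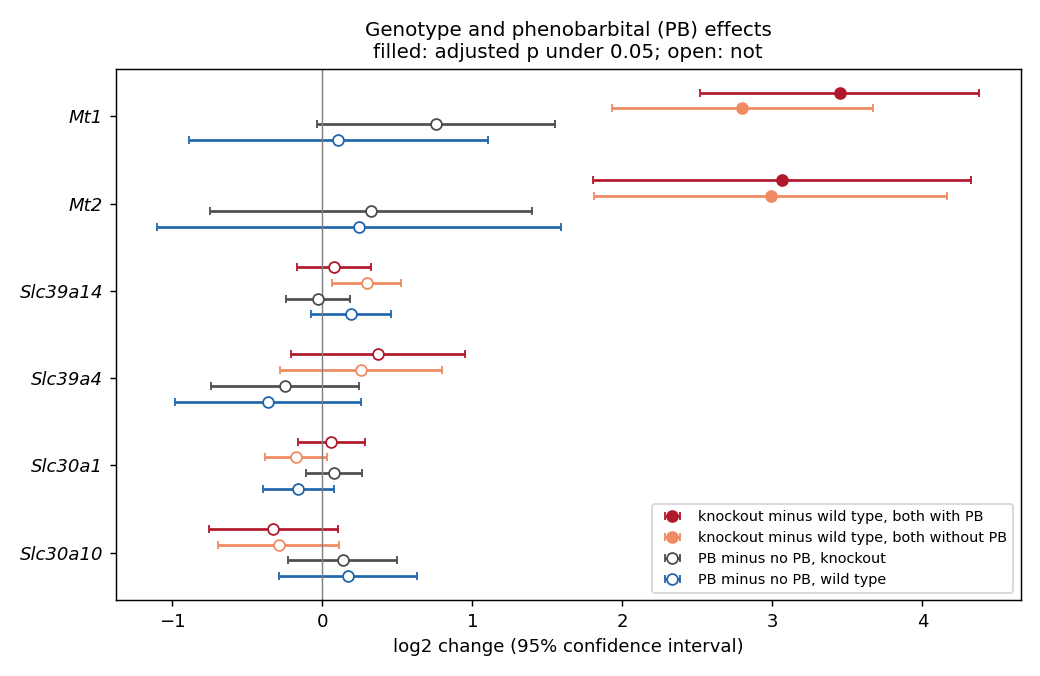
Log2 changes (horizontal axis) of the 6 genes with their 95% confidence intervals, for knockout minus wild type with and without phenobarbital and for phenobarbital minus no phenobarbital in each genotype. Filled points passed an adjusted p of 0.05, which holds only for Mt1 and Mt2 between the genotypes, with log2 changes from 2.80 to 3.45.

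Slc39a14 encodes ZIP14, an importer of zinc, iron and manganese at the hepatocyte membrane that interleukin-6 is known to raise. Its log2 signal (chromosome 14, 70303467 to 70351452) had a lowest, median and highest value of 9.28, 9.65 and 9.90 in knockout with phenobarbital and 9.32, 9.68 and 10.09 in knockout without it. The wild-type arrays read 9.43, 9.51, 9.56 and 9.64 with phenobarbital and 9.41, 9.37, 9.28, 9.39 and 9.28 without it. Without phenobarbital, 2 of the 7 knockout arrays lay within the wild-type range. The log2 change between the genotypes was 0.30 without phenobarbital (SE 0.11, interval 0.06 to 0.53), just short of the threshold (limma adjusted p = 0.0558, unadjusted p = 0.0146). It was 0.08 with phenobarbital (interval -0.17 to 0.32, limma adjusted p = 0.688). Without knockout control arrays 2, 6 and 7 the change without phenobarbital was 0.33 and passed (limma adjusted p = 0.0362). It also passed without array 2, 3 or 6 of that group or array 1 or 3 of the knockout phenobarbital group, and over all alternatives its adjusted p ran between 0.0292 and 0.208.

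In the wild type, all 4 arrays with phenobarbital had a higher Slc39a14 signal than the 5 without it on the probe set used. The nearest values were 9.43 with phenobarbital and 9.41 without it, and the separation held for 1 of the 4 probe sets of Slc39a14. On the probe set used, the log2 change was 0.19 (interval -0.07 to 0.45, limma adjusted p = 0.547), and in knockout it was -0.03 (interval -0.24 to 0.18). Slc39a4 was the other gene whose wild-type arrays did not overlap. This count of 2 of 6 genes stands against 11.6% of all genes with no overlap in that comparison, and in knockout it was 0 of 6 against 0.976%.

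Slc39a4 encodes ZIP4, best known as the importer that takes up dietary zinc in the intestine. Its log2 signal (chromosome 15, 76612383 to 76618506) read 8.53, 8.41, 8.35 and 8.16 in wild type with phenobarbital, and 8.75, 8.83, 8.59, 8.62 and 8.85 in wild type without it. Every treated wild-type array lay below every untreated one, with a log2 change of -0.36 (SE 0.30, interval -0.98 to 0.25, limma adjusted p = 0.651). When only the wild-type arrays were fitted, the same change had an adjusted p = 0.0283, and over all alternatives the adjusted p ran between 0.0283 and 0.811. The SD of Slc39a4 was 0.49 and 0.67 in knockout with and without phenobarbital, against 0.16 and 0.12 in the wild type, and the fit over all 4 groups shares 1 variance per gene.

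In knockout livers with phenobarbital, the lowest, median and highest log2 signals of Slc39a4 were 8.24, 8.51 and 9.36, and in knockout livers without it 8.25, 8.73 and 9.82. All wild-type arrays without phenobarbital lay within the range of the knockout arrays without it, and 3 of 4 did so with it. The log2 change between the genotypes was 0.37 with phenobarbital (interval -0.21 to 0.95, limma adjusted p = 0.362) and 0.26 without it (interval -0.29 to 0.80, adjusted p = 0.490). Without knockout control arrays 2, 6 and 7 the change without phenobarbital was -0.26, and the phenobarbital change in knockout was 0.26 in place of -0.25. The direction of both thus rested on these 3 arrays.

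Slc30a1 encodes ZnT1, the zinc exporter of the plasma membrane. Its log2 signal (chromosome 1, 191906697 to 191913248) averaged 9.37 ± 0.21 and 9.29 ± 0.18 in knockout with and without phenobarbital (SD, n = 7 each), against 9.31 ± 0.07 (n = 4) and 9.47 ± 0.16 (n = 5) in wild type with and without it. All 4 groups overlapped with each other. The log2 change between the genotypes was 0.06 with phenobarbital (interval -0.16 to 0.28) and -0.18 without it (interval -0.39 to 0.03), with limma adjusted p = 0.722 and 0.191. The interaction of 0.24 had an interval of -0.06 to 0.54 (limma adjusted p = 0.650). All these intervals lie within a change of 1 on the log2 scale, a narrower range than that of Mt1 or Mt2.

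Slc30a10 encodes ZnT10, which exports manganese in the mouse liver. Its log2 signal (chromosome 1, 185454848 to 185468762) had a lowest, median and highest value of 8.51, 9.05 and 9.62 in knockout with phenobarbital and 8.32, 9.05 and 9.41 in knockout without it. The wild-type arrays read 9.56, 9.44, 9.46 and 9.19 with phenobarbital and 9.24, 9.43, 9.25, 9.10 and 9.18 without it. The knockout arrays thus extended further down than the wild-type ones while overlapping with them. The log2 change between the genotypes was -0.33 with phenobarbital (SE 0.21, interval -0.76 to 0.10, limma adjusted p = 0.270) and -0.29 without it (SE 0.19, interval -0.69 to 0.11, adjusted p = 0.272). Without knockout control arrays 2, 6 and 7 the change without phenobarbital was 0.02.

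Across arrays, Slc39a4 and Slc30a10 ran opposite to each other, with a Pearson correlation of -0.834 over the 23 arrays and -0.808 after the group means were subtracted. In knockout livers without phenobarbital, Slc39a4 read 9.40, 9.78 and 9.82 on arrays 2, 6 and 7, where Slc30a10 read 8.68, 8.32 and 8.60. In knockout livers with phenobarbital, Slc39a4 read 9.35, 8.97 and 9.36 on arrays 4, 5 and 7, where Slc30a10 read 8.92, 8.67 and 8.51. On the remaining 8 knockout arrays Slc39a4 lay between 8.24 and 8.73, and Slc30a10 between 9.05 and 9.62. The metallothioneins did not follow this pair. The correlation of Mt1 over the 23 arrays was 0.124 with Slc39a4 and -0.297 with Slc30a10, and -0.283 and 0.120 after the group means were subtracted. Slc39a14 had correlations of 0.618 with Mt1 and 0.679 with Mt2, and of 0.632 and 0.645 within groups.

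**Figure D3:**
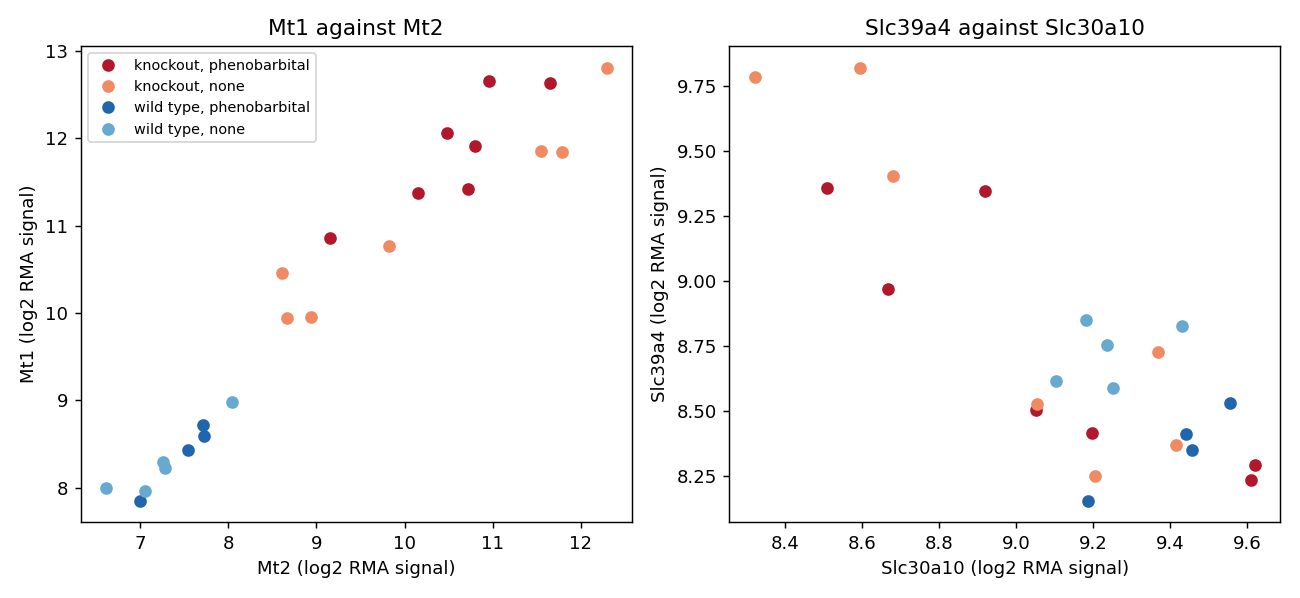
Log2 RMA signals of Mt1 (vertical) against Mt2 (horizontal) and of Slc39a4 (vertical) against Slc30a10 (horizontal), where each point is 1 of 23 arrays and colour gives the group. The left panel forms 1 rising band with the wild type at its low end (r = 0.971), and the right panel a falling one (r = -0.834) whose upper left end holds knockout arrays only.

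Markers of other liver cells moved with genotype in the same samples. Of all genes tested, 11.9% were higher and 8.12% lower in knockout with phenobarbital, and 14.8% and 10.1% without it. The counts of called markers below stand against these shares. Of 10 macrophage markers tested, 9 were higher in knockout with phenobarbital and 8 without it. The summed linear signal of these markers had a lowest, median and highest value of 3433, 7792 and 12115 in knockout with phenobarbital and 3480, 10446 and 18470 in knockout without it. In the wild type it was 1724, 1837 and 2121 with phenobarbital and 1835, 2541 and 3431 without it. In bulk liver, fewer cells of a type and less RNA per cell cannot be told apart.

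Macrophage sums and Mt1 signals were set side by side on the knockout arrays. Knockout control arrays 1 and 7 had sums of 10446 and 14127 and Mt1 signals of 12.81 and 11.84. Arrays 2 and 6 of that group had sums of 15659 and 18470 and Mt1 signals of 10.46 and 10.77. Knockout control arrays 3, 4 and 5 had macrophage sums of 3480, 3924 and 3809, close to the highest wild-type sum of 3431, and Mt1 signals of 9.94, 9.96 and 11.86. Knockout phenobarbital array 2, with a sum of 3433, had a Mt1 signal of 12.06. Array 5 of that group, with the highest sum of 12115, had a Mt1 signal of 11.91. Its arrays 1, 3, 4, 6 and 7 had sums of 6006, 7792, 11486, 4111 and 10971. Their Mt1 signals were 11.42, 12.64, 10.86, 12.66 and 11.38. The wild-type array with the sum of 3431 had a Mt1 signal of 8.99. The grouping of the knockout arrays and the wild-type array were chosen after their values were seen. The part of macrophages in the Mt1 difference was not tested. On the arrays with high Slc39a4 the sums were 15659, 18470 and 14127 on knockout control arrays 2, 6 and 7 and 11486, 12115 and 10971 on knockout phenobarbital arrays 4, 5 and 7. Knockout control array 1 had a sum of 10446 and the lowest Slc39a4 signal of its group, 8.25. Whether other cells supply the Slc39a4 signal, or lower that of Slc30a10, was not tested.

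Of 6 neutrophil markers tested, 1 was higher in knockout with phenobarbital and 2 without it. Their summed signal ranged between 204 and 396 in knockout with phenobarbital and 262 and 1487 in knockout without it, against 171 to 194 and 171 to 202 in the wild type. The highest sum was on knockout control array 7, one of the arrays with high Mt1 and Mt2 and the one with the highest Slc39a14 signal. Array 6 of that group had the next highest sum, 763, with a Mt1 signal of 10.77. Array 1 followed with a sum of 557, Mt1 at 12.81 and Mt2 at 12.29. Array 5 had a sum of 270 with Mt1 at 11.86 and Mt2 at 11.54. Arrays 2, 3 and 4 had sums of 530, 262 and 294 and Mt1 signals of 10.46, 9.94 and 9.96. Of 8 stellate cell markers 3 were higher in knockout with phenobarbital and 5 without it, of 7 endothelial markers 5 and 6, and of 3 cholangiocyte markers 1 and 2. Of 6 lymphocyte markers 0 passed with phenobarbital by limma (2 at an unadjusted p under 0.05), and 2 were higher and 1 lower without it. Red blood cell (1 tested) and kidney markers (2 tested) had 0 calls in both comparisons, with 1 each at an unadjusted p under 0.05 except kidney without phenobarbital, at 0. Of the pancreas (5 tested) and intestine markers (3 tested) 1 each was lower in knockout in both. The part of these cells in the metallothionein result was not tested.

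The other zinc genes of the liver showed smaller differences than Mt1 and Mt2. The zinc sensor Mtf1 had a log2 change of 0.00 in the knockout both with and without phenobarbital (limma adjusted p = 0.968 and 0.9999), with intervals of -0.14 to 0.15 and -0.13 to 0.13. Mt3, the brain metallothionein, did not pass either, and Mt4 was below the filter. Of 11 other ZIP importers tested, 2 were higher and 1 lower in knockout in both comparisons. Slc39a6 (ZIP6) rose by 0.91 with phenobarbital (SE 0.24, limma adjusted p = 0.0110) and 0.77 without it (adjusted p = 0.0166). Slc39a1 (ZIP1) rose by 0.41 and 0.32 (adjusted p = 0.00935 and 0.0230), and Slc39a2 (ZIP2) fell by 0.53 and 0.39 (adjusted p = 0.00244 and 0.0116). Slc39a2 was dim, at means of 4.72 and 4.73 in knockout and 5.25 and 5.11 in wild type. The filter cut was 4.56 on average. The 2 higher and 1 lower of 11 stand against 11.9% and 8.12% of all genes with phenobarbital, and 14.8% and 10.1% without it. The median change of the 11 was 0.040 with and -0.022 without phenobarbital, near that of all genes.

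Slc39a12 was below the filter. Phenobarbital changed 1 of the 11 in wild type, Slc39a11, which rose by 0.34 (limma adjusted p = 0.0274), and 0 in knockout by limma, where 1 had an unadjusted p under 0.05. Of 6 other ZnT exporters tested, limma called 0 in all 5 comparisons, with 2 at an unadjusted p under 0.05 between the genotypes under phenobarbital and 0 elsewhere. Slc30a9 had the largest of these changes, 0.31 with phenobarbital (interval 0.01 to 0.60, adjusted p = 0.137). Slc30a2 and Slc30a8 were below the filter. No other gene of the 3 families approached the size of the metallothionein difference.

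**Figure D4:**
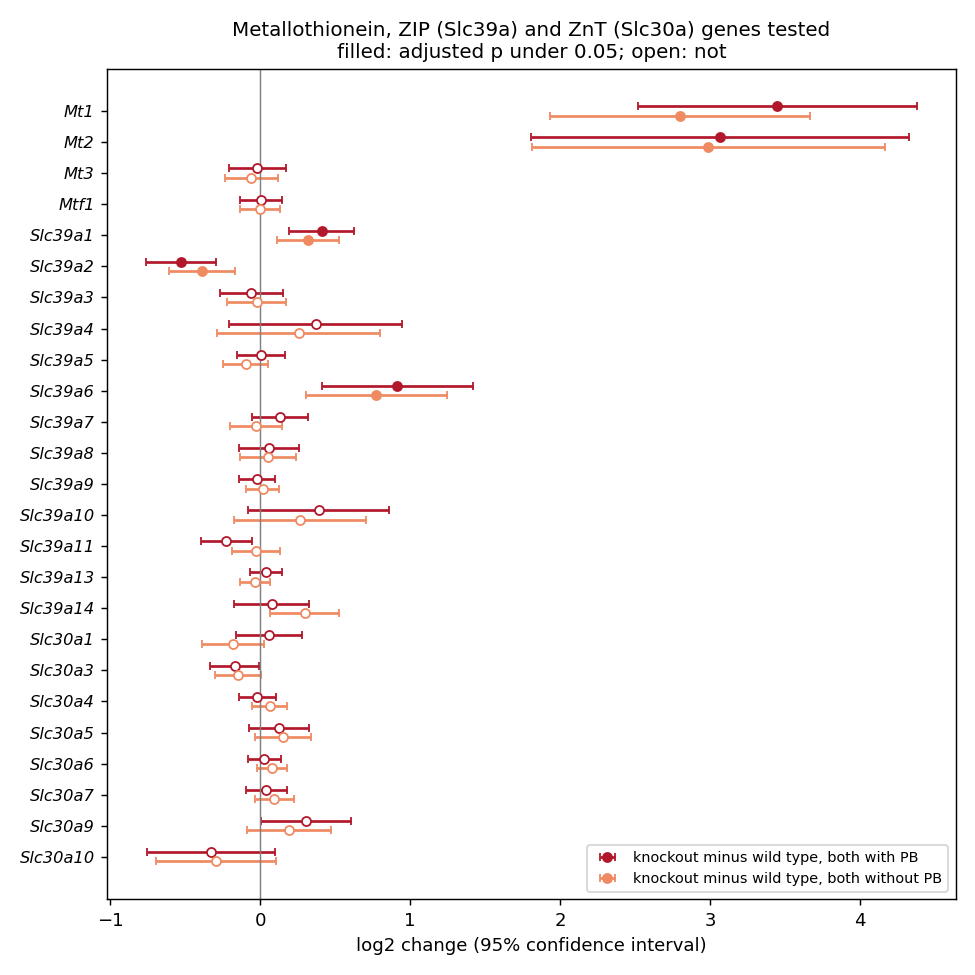
Log2 change between knockout and wild type (horizontal axis, with 95% confidence intervals) of all metallothionein, ZIP and ZnT genes tested and of the sensor Mtf1, with phenobarbital (dark) and without it (light). Filled points passed an adjusted p of 0.05: Mt1, Mt2, Slc39a1, Slc39a2 and Slc39a6 in both comparisons.

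Copper is the other metal that metallothioneins bind, and 10 genes of copper handling were tested. With phenobarbital, Ccs, the copper chaperone of superoxide dismutase, was lower in knockout by a log2 change of -0.44 (SE 0.09, limma adjusted p = 0.00126), and 0 were higher. Without it, 2 were higher and 2 lower: the copper pump Atp7a (0.56), the transporter Slc31a2 (0.55), Ccs (-0.39) and Sod1 (-0.24), with the highest adjusted p at 0.0255. Between the genotypes, 11.9% of all genes were higher and 8.12% lower with phenobarbital, and 14.8% and 10.1% without it. Phenobarbital changed 0 of the 10 copper genes in either genotype by limma, with 0 at an unadjusted p under 0.05.

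Interleukin-6 and glucocorticoids also raise metallothioneins, so both target groups were read beside them. Of 22 acute-phase and interleukin-6 genes, 7 were higher and 1 lower in knockout with phenobarbital, and 4 were higher and 0 lower without it. Among all genes tested, 11.9% were higher and 8.12% lower with phenobarbital, and 14.8% and 10.1% without it. The 4 of 22 without phenobarbital were thus near the share of all genes. The median log2 change of the 22 was 0.41 with phenobarbital and 0.31 without it, against 0.0024 and -0.0047 over all genes. The serum amyloid genes Saa2 and Saa1 had log2 changes of 4.09 (SE 1.09) and 3.14 (SE 0.57) with phenobarbital (limma adjusted p = 0.0115 and 0.000622), and of 2.26 and 1.40 without it, where neither passed (adjusted p = 0.107 and 0.0599). The knockout means with and without phenobarbital were 13.26 and 13.22 for Saa1 and 12.08 and 12.09 for Saa2. In the wild type they were 10.13 and 11.82 for Saa1 and 7.99 and 9.83 for Saa2. The larger difference with phenobarbital thus went with lower wild-type means, not with higher knockout means. Without phenobarbital the largest called changes were those of the transcription factor Cebpd (1.16) and of Hamp, which encodes hepcidin (0.64).

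Phenobarbital lowered 2 of the 22 in knockout, Il1r1 and Itih3 (1 with quantile normalization), and 2 in wild type, where Il6ra, the interleukin-6 receptor, fell by 1.09 and the inter-alpha-trypsin inhibitor Itih3 by 0.61. Of 10 glucocorticoid targets, Sgk1 rose in knockout by 0.82 with phenobarbital and 1.30 without it (limma adjusted p = 0.0134 and 0.000157), and no other passed between the genotypes. That 1 of 10 stands against 11.9% of all genes higher with phenobarbital and 14.8% without it. Phenobarbital lowered 1 of the 10 targets in wild type, the gluconeogenic enzyme gene Pck1 (-0.87, limma adjusted p = 0.0146). In knockout it lowered 0 by limma, with 1 at an unadjusted p under 0.05. The test called 3.85% of all genes in wild type and 2.05% in knockout. Whether these groups and the metallothioneins share a cause was not tested.

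Of 8 Nrf2 targets tested, 0 were higher and 1 lower in knockout with phenobarbital, and 2 were higher and 1 lower without it. These were the heme oxygenase gene Hmox1 (0.95) and the epoxide hydrolase gene Ephx1 (0.37), and Gclm, a subunit of the glutathione-making ligase, which was lower in both (-0.31 and -0.34). Over all genes tested, 11.9% were higher and 8.12% lower in knockout with phenobarbital, and 14.8% and 10.1% without it. Phenobarbital raised Ephx1 and Gstm1 in both genotypes, where it changed 2.05% of all genes in knockout and 3.85% in wild type. Of 7 CAR targets phenobarbital raised 5 in knockout and 6 in wild type, and lowered 0 in either. Between the genotypes, 0 were higher and 4 lower in knockout with phenobarbital, and 1 was higher and 0 lower without it. The interaction passed for 3 of the 7, each with a smaller rise in knockout than in wild type.

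Where a gene had several probe sets, they were compared over the 23 arrays, against a background of 18.3% of 24089 probe sets called between the genotypes with phenobarbital and 22.6% without it. The brighter of the 2 Mt1 probe sets, the one used, carries in its name the suffix that marks probes shared by several transcripts. The dimmer one averaged 5.47 and 5.28 in knockout with and without phenobarbital, against 4.95 and 4.998 in the wild type. It had a log2 change of 0.52 with phenobarbital (SE 0.17, limma adjusted p = 0.0416) and 0.29 without it (SE 0.16, adjusted p = 0.204), and a correlation of 0.791 with the brighter one. Both probe sets thus passed with phenobarbital, and only the brighter one without it. With the probe sets of a gene averaged, the log2 change of Mt1 was 1.98 with phenobarbital (adjusted p = 7.61e-05) and 1.54 without it (adjusted p = 0.000472), so the size of the fold depended on the probe sets taken. The dimmer one lay near the array medians of 5.09 to 5.14, and its small change lowers that average.

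Mt2 and Slc39a4 had 1 probe set each. For Slc39a14, the other 3 probe sets had correlations of 0.853, 0.619 and 0.418 with the one used and log2 changes of 0.21, 0.14 and -0.02 between the genotypes without phenobarbital, and none passed. The second probe set of Slc30a1 had a correlation of 0.620 with the first, and that of Slc30a10 one of 0.949. For Slc30a10 it gave changes of -0.15 with phenobarbital and -0.11 without it (limma adjusted p = 0.549 and 0.647). The transporters thus had 0 calls on all 9 of their probe sets between the genotypes.

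The genes whose log2 signals were most like each member over the 23 arrays differed between the members. For Mt1, apart from Mt2, they were Tceal8 (r = 0.889), Rdh5, Tmem184c, Ackr1 and F8 (0.868). After the group means were subtracted, Tceal8, Rdh5 and Tmem184c had correlations of 0.060, -0.001 and -0.085, so their likeness lay in the difference between groups, and Ackr1 kept 0.572. For Mt2 they were Ackr1 (0.872), Ifitm2, Rlim, Abca7 and Cd1d1 (0.838), with 0.492 to 0.617 within groups.

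For Slc39a14 they were Mtss1 (0.789), Stat3, Mobp, Snhg17 and Dda1 (0.748). Stat3, the transcription factor that carries the interleukin-6 signal, had the highest correlation of these after the group means were subtracted, 0.833. For Slc39a4 they were Rhoc (0.911), Tut7, Alcam, Hddc2 and Fkbp11 (0.894), with 0.880 to 0.943 within groups. For Slc30a10 they were Polr3g (0.915), Paqr9, Sema6c, Macrod1 and Gm12758 (0.876), with 0.848 to 0.921 within groups. For Slc30a1 they were Pitpnc1 (0.750), Fem1c, Mapk14, Akr1d1 and Rab9 (0.635). These points share their arrays, and the 23 arrays fall into 4 groups, so the values rank likeness only.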

How the data were processed

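RNA of 23 liver samples was measured on Affymetrix 3' arrays. The authors deposited 1 log2 signal per probe set and array, made with RMA in the R package affy, per the submitters' processing notes. The versions are not given in the sources used here. Values were used as deposited. Precision is limited by how many arrays a group has.

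Of 45037 probe sets, 34945 were assigned to 1 gene, 932 to several and 9160 to none, and 34741 symbols were updated through the Entrez identifier (GRCm38.p6). A gene was represented by its single-gene probe set with the highest mean. It was tested if above the array's 40th percentile (4.56 on average) in at least 4 arrays, which kept 13826 of 18193 genes. A linear model with 1 mean per group over all 23 arrays was fitted with limma 3.58.1 in R 4.3.3, two-sided, with Benjamini-Hochberg adjustment over all genes tested. A gene was called at an adjusted p under 0.05. The script was tested on simulated data. The same fit was run on 24089 probe sets.

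The members and lists were chosen with earlier results of these data known. Every member is described. From each list (other ZIP importers, other ZnT exporters, the sensor Mtf1 with Mt3 and Mt4, copper handling, acute phase and interleukin-6, glucocorticoid, Nrf2, perivenous and CAR targets, and markers of cell types and tissues) counts are given, with up to 4 called genes per comparison. Per member, the 5 genes with the highest Pearson correlation over the arrays are named. Saa1 and Saa2 without phenobarbital, Slc30a9 and single arrays were picked out after their values were seen. Promoter sequences are from RefSeq. Alternatives changed the filter (none, or the 60th percentile), the normalization (quantile, or median centring), the probe sets (mean per gene, or each on its own), the variance prior (trended and robust), the weighting (array weights) and the samples (replicate block, only the groups compared, without 3 knockout control arrays, without each array).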

Additional observations from a re-analysis of the deposited data

Results flagged for a closer look

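Among 24 combinations of gene and group, 1 array stood apart from the others of its group. The log2 signal of Slc30a1 was 8.91 on knockout control array 7, below the nearest of the other 6 arrays at 9.25. The gap was 0.608 of the group's range, above Dixon's critical value for 7 arrays. Such a gap arises by chance in about 1 of 20 groups. The second probe set of Slc30a1 read 7.30 on that array and 7.29 on array 2.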

How the results depend on the processing

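Calls were recomputed under 34 other settings, 23 of which left out 1 array. Mt1 and Mt2 stayed higher in knockout, with and without phenobarbital, under all 34. For Mt1 the log2 change ran between 1.98 and 3.61 with phenobarbital and between 1.54 and 2.99 without it, and for Mt2 between 2.80 and 3.30 and between 2.65 and 3.26. The number of the 6 genes called moved in 2 of the 5 comparisons. For phenobarbital in wild type it was 1 (Slc39a4) in place of 0 when only those arrays were fitted. For the genotypes without phenobarbital it was 3 in place of 2, the third being Slc39a14, with array weights (0.28, adjusted p = 0.0391), without knockout control arrays 2, 6 and 7 (0.33, adjusted p = 0.0362) and without any of 5 single arrays, so that leaving out 1 array gave 2 to 3.

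Directions turned only for log2 changes that had not passed. With array weights they were -0.0276 (Slc30a10) and 0.0065 (Slc39a14) for phenobarbital in knockout and -0.0567 for Slc39a4 between the genotypes without it. Without knockout control arrays 2, 6 and 7, phenobarbital in knockout gave -0.18 for Slc30a10 and 0.26 for Slc39a4, the genotypes without phenobarbital gave 0.0192 for Slc30a10 and -0.26 for Slc39a4, and the interaction of Mt2 was -0.0461. The mean of probe sets gave -0.0154 for Slc39a14 between the genotypes with phenobarbital. With 1 array left out, Slc39a14 ran between -0.0833 and 0.0442 for phenobarbital in knockout, and the interaction between -0.194 and 0.420 for Mt2, -0.139 and 0.0615 for Slc30a10 and -0.00865 and 0.253 for Slc39a4. The cause was not tested.

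Same-numbered arrays of different groups deviated from their group means with correlations between -0.695 and 0.628. Differently numbered arrays were not set against them, so these values cannot decide whether the numbers pair the samples. With the replicate number as a block, 0, 0, 2, 2 and 0 of the 6 genes passed for phenobarbital in knockout and wild type, the genotypes without and with phenobarbital, and the interaction, as without it. The interaction was then -0.0725 for Mt2 and 0.0208 for Slc30a10. Over all genes the block called 1967 between the genotypes without phenobarbital, against 3453, and 1606 with it, against 2772. Fitting only the groups compared called 100, 942 and 2081 genes for phenobarbital in knockout, in wild type and the genotypes without it, against 284, 532 and 3453. Without knockout control arrays 2, 6 and 7 these counts were 785, 812 and 1532, and array weights gave 461 and 1503 for phenobarbital and 4574 for the genotypes with it. The interaction called 323 genes with array weights and 274 without the 3 arrays, against 121. Leaving out 1 array gave 157 to 409 genes for phenobarbital in knockout (157 without knockout phenobarbital array 1) and 308 to 665 in wild type (347 and 308 without wild-type phenobarbital arrays 1 and 3). It gave 1794 to 3286 for the genotypes with phenobarbital (1794 and 1842 without wild-type phenobarbital arrays 3 and 4) and 61 to 146 for the interaction (74, 61 and 77 without arrays 1, 3 and 4 of that group). With every probe set tested, 696, 923, 5444, 4410 and 247 of 24089 passed for phenobarbital in knockout and wild type, the genotypes without and with phenobarbital, and the interaction. Quantile normalization called 214 higher and 103 lower for phenobarbital in knockout, against 162 and 122. It also called 2 ZIP importers lower in knockout with phenobarbital in place of 1, and without phenobarbital 5 acute-phase genes higher and 1 lower in place of 4 and 0. For phenobarbital in knockout it called 1 acute-phase gene lower in place of 2, and 6 CAR targets higher in place of 5. With it or with median centring, 1 Nrf2 target was higher in knockout without phenobarbital in place of 2.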
